A study of Sus scrofa with 32 samples.

Results

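PAX7 and PAX3 are paired-box transcription factors, and the chromatin around their genes was described in satellite cells of pig muscle, which renew and repair the fibres. The members are these 2 genes, chosen by name from the 19550 protein-coding genes of the pig annotation. No measured value entered the choice, though earlier results of these data were known. Each gene was taken with 50 kb on either side, here called its locus, and every peak overlapping it was collected from 24 peak lists. The PAX7 locus held 154 such peaks and the PAX3 locus 75, of 341788 in all lists.

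The lists come from CUT&Tag, in which an antibody bound to a histone mark directs a transposase that tags the DNA beside it. There were 3 marks with 8 libraries each, 2 in every group. H3K4me3 is found at active promoters, H3K27ac at active promoters and enhancers, and H3K27me3 at genes silenced by Polycomb complexes. The groups, as labelled, were WT 0 h, CBP 0 h, WT 60 h and CBP 60 h, where 0 h stands for proliferation and 60 h for differentiation. WT cells had no treatment named. CBP cells were cultured with SGC-CBP30, an inhibitor that blocks the acetyl-lysine pocket (bromodomain) of CBP and of p300, both acetyltransferases, for 48 h in proliferation and 60 h in differentiation. Its dose is labelled 5 uM/ml, a unit that is not clear. The tissue and cell type fields name pig muscle satellite cells, while the cell line and growth fields name C3H cells in RPMI, and proliferation is also what the treatment field states at 60 h. Time was therefore read from the titles. Nothing states that replicates were separate cultures, so the errors and p-values measure the spread between libraries, which may be technical. The 8 IgG samples were not analysed here.

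PAX7 marks satellite cells in adult muscle and is needed to maintain them, and its level falls as myoblasts leave the cell cycle and differentiate. PAX3 acts earlier, in the dermomyotome and in the migrating muscle precursors of the embryo, and also in the neural crest, and it remains expressed in satellite cells of only some adult muscles. Both proteins bind DNA through a paired domain and a homeodomain and activate MYF5. PAX7 recruits a histone H3K4 methyltransferase complex to its targets through PAXBP1 and the arginine methyltransferase CARM1.

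In the build Sscrofa11.1, PAX7 (gene ID 100625823) lies on chromosome 6 from 77160827 to 77268626, and no other annotated gene lies within its locus. PAX3 (gene ID 414901) lies on chromosome 15 from 124093803 to 124193041. Its locus also holds LOC100626715, a protein-coding gene from 124213678 to 124215657. The annotation table used has no strand and no exons, so positions are given in kb from the lower-coordinate end of each gene, and the ends are called lower and higher. The measure is the length of DNA under peaks, in kb. No source used here gives the read depth, and a locus with no listed peak may still carry reads below the peak caller's threshold.

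The labelled cell type was set against its markers in the lists of untreated proliferating cells. Within 5 kb of a gene end, H3K4me3 was listed in both WT 0 h libraries at 7 of 8 satellite cell or myoblast markers, among them PAX7, MYF5, MYOD1 and CDH15, and not at CHRNA1. It was listed at 4 of 6 fibroblast or fibro-adipogenic markers, with a summed length of 13.4 to 13.7 kb against 18.9 to 19.6 kb for the muscle list. DCN and LUM of that list were not listed in both libraries. The endothelial list (0 of 5) and the adipocyte list (0 of 4) were at 0, the immune list had CD68 alone (1 of 5), and the smooth muscle list KCNJ8 alone (1 of 4). By 60 h in WT the muscle list had reached 8 of 8 and 30.7 to 31.4 kb, and the fibroblast list stood at 16.1 to 16.9 kb. H3K27ac was listed in both WT 0 h libraries at 5 of 8 muscle markers, not at MYOD1, CDH15 or DES, and at 3 of 6 fibroblast markers. Its summed length over the muscle list was 14.6 to 14.8 kb in WT 0 h and 29.3 to 31.6 kb in WT 60 h. Over the fibroblast list it was 2.98 to 3.32 kb in WT 0 h and 12.9 to 16.6 kb in WT 60 h. The part of other cells in the results was not tested.

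The lists themselves differed in length between groups, which touches every comparison of length. H3K4me3 lists held 14898 to 17364 peaks, H3K27ac lists 8969 to 23437 and H3K27me3 lists 1338 to 19317. Covered length in CBP against WT was 0.789-fold at 0 h and 1.02-fold at 60 h for H3K4me3, 0.451-fold and 0.549-fold for H3K27ac, and 14.1-fold and 1.66-fold for H3K27me3. In WT at 60 h against 0 h it was 1.23-fold, 1.55-fold and 2.82-fold for these marks in that order. The part of list length in the results below was not tested, and values as a share of covered length are given where they change a call.

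PAX7 carried H3K4me3 and H3K27ac at its lower end and in the neighbouring stretch of the gene, in every group. The longest H3K4me3 region, chr6:77159904-77165016 (-0.92 to 4.19 kb), was listed in all 8 libraries, and the other 7 H3K4me3 regions of the locus followed it inside the gene up to 15.9 kb. In WT 0 h the region measured 4.8 and 4.94 kb in the 2 libraries. Its longest peak there, 4.8 and 4.26 kb, ranked 93rd and 163rd by length among all H3K4me3 peaks of its list, within the longest 0.544% and 0.939%. Its fold enrichment over local background, as the authors' lists give it, was 39.0 and 43.7. By the -log10 p of those lists it ranked at the top 14.3% and 7.32%. The higher end of PAX7 and both flanks beyond 5 kb held no H3K4me3 in any library.

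H3K27ac at PAX7 reached further into the gene than H3K4me3. Of 13 regions, 4 were listed in all 8 libraries: 3 adjoining stretches at 0.08 to 4.20 kb, 4.48 to 9.66 kb and 9.85 to 13.7 kb, and a separate intragenic region at 71.5 to 72.7 kb, chr6:77232371-77233543. That intragenic region measured 0.502 and 0.505 kb in WT 0 h, 0.595 and 0.376 kb in CBP 0 h, 1.13 and 0.585 kb in WT 60 h, and 0.406 and 0.408 kb in CBP 60 h. Its libraries overlapped between the treated and untreated groups at 0 h and not at 60 h, where both treated libraries were the lower. No H3K4me3 peak was listed there.

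**Figure D1:**
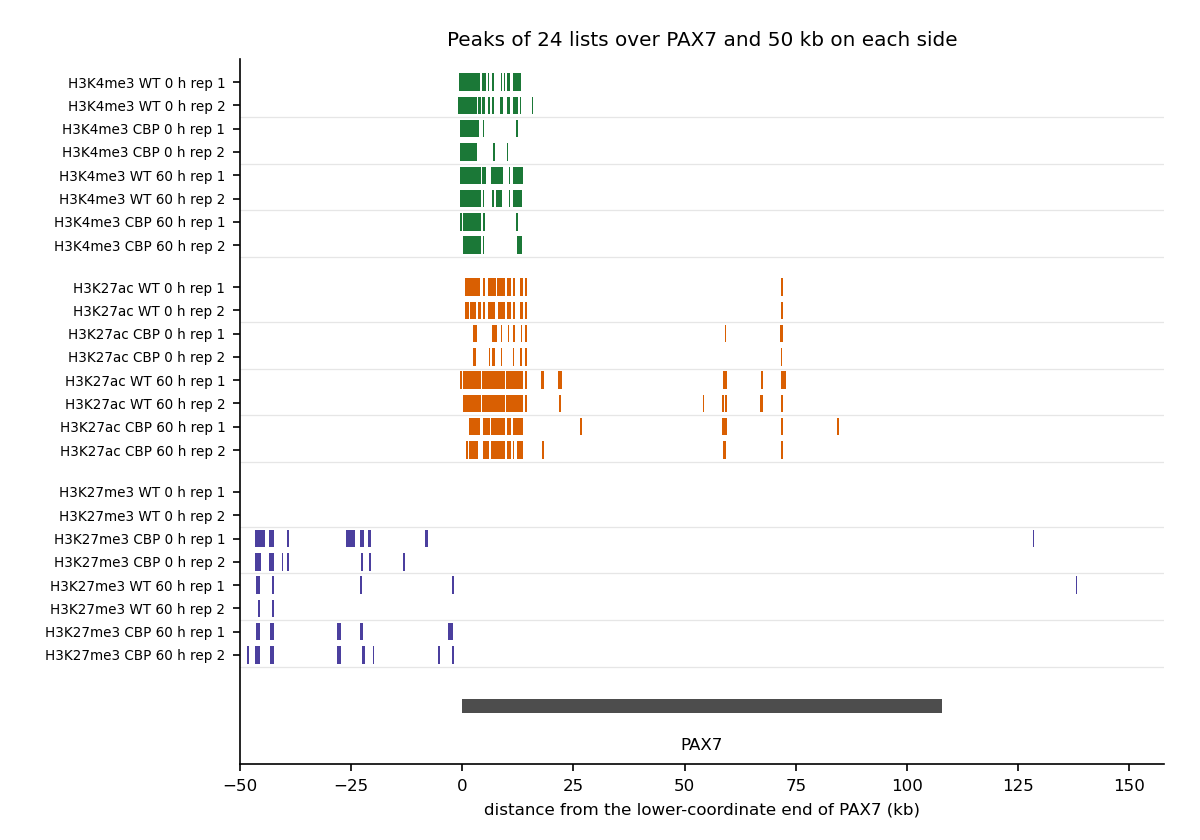
Peaks of the 24 lists (rows, grouped by mark and condition) drawn to scale by distance in kb from the lower-coordinate end of PAX7, with the gene as a grey bar. H3K4me3 and H3K27ac lie at the lower end of the gene in every row, H3K27ac recurs near 71.5 kb, and H3K27me3 lies outside the gene, mostly in the lower flank, with no peak in either WT 0 h row.

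SGC-CBP30 was compared with no treatment first in proliferating cells. H3K4me3 over the PAX7 locus measured 9.20 and 9.52 kb in WT 0 h and 5.05 and 4.30 kb in CBP 0 h. Both treated libraries were well below both untreated ones. The length fell by 0.93 on the log2 scale (SE 0.0795, adjusted p = 0.000124, limma over all genes), from 9.36 ± 0.232 to 4.67 ± 0.532 kb (SD, n = 2), which is 0.499-fold. Of all loci tested for this mark and contrast, 60.5% were called lower, and the median over all was -0.24, so a lower H3K4me3 length was common and the size at PAX7 was larger than the median. As a share of covered length the PAX7 value was 0.633-fold, and the fall scaled this way kept an adjusted p of 0.00189. In a population of cells, fewer cells with a mark and less of it per cell cannot be told apart.

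Most of the H3K4me3 length lost at PAX7 lay inside the gene. Within 5 kb of the lower end the libraries gave 5.37 and 5.47 kb in WT 0 h and 4.55 and 3.75 kb in CBP 0 h, or 0.766-fold. Over the gene ends the length fell by 0.35 (adjusted p = 0.0205), where 40% of all genes were called lower. Per Mb of covered length it was 0.246 and 0.248 kb in WT 0 h and 0.264 and 0.216 kb in CBP 0 h, which overlap. The strongest peak there had folds of 39.0 and 43.7 in WT 0 h and 28.4 and 23.4 in CBP 0 h, not tested. In the gene body beyond 5 kb the libraries gave 3.83 and 4.05 kb in WT 0 h against 0.497 and 0.546 kb in CBP 0 h, or 0.132-fold. The regions at 6.54 to 9.14 kb and 11.3 to 13.6 kb, each in both WT 0 h libraries, were each in a single treated library, and the region at 5.70 to 6.15 kb was in neither. Counted by whole regions, 1 of 8 at PAX7 and 1 of 6 at PAX3 were lost, meaning held by both WT and no CBP library, against 9.49% of all H3K4me3 regions. The lost PAX3 region, at 118.8 to 119.2 kb, lies beyond that gene and next to LOC100626715.

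At 60 h the treated and untreated libraries were apart at PAX7 in the same way. H3K4me3 over the locus measured 10.8 and 9.53 kb in WT 60 h and 5.46 and 5.54 kb in CBP 60 h, with no overlap. It fell by 0.82 on the log2 scale (SE 0.0795, adjusted p = 0.000723, limma), or 0.542-fold. Here the call was less common, since 9.16% of all loci were called lower and the median over all was 0.05. The covered length of the H3K4me3 lists was alike in both groups at this time, at 1.02-fold. In the gene body the lengths were 5.51 and 4.44 kb in WT 60 h against 0.571 and 1.12 kb in CBP 60 h, or 0.170-fold, while within 5 kb of the lower end they were 5.25 and 5.10 kb against 4.89 and 4.42 kb. Tested over the gene ends alone, the difference was -0.14 with an adjusted p of 0.344. The call on length at 60 h thus rests on the gene body. The strongest peak, at the lower end, had folds of 26.0 and 24.4 in WT 60 h and 12.7 and 14.7 in CBP 60 h. Folds were not tested. Of 5 regions at PAX7, 2 were lost (6.54 to 9.14 kb and 9.98 to 10.8 kb) and of 3 at PAX3 none was, against 4.51% of all regions. The effect of SGC-CBP30 on H3K4me3 at PAX7 was not shown to differ between the times (difference 0.11, adjusted p = 0.419).

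**Figure D2:**
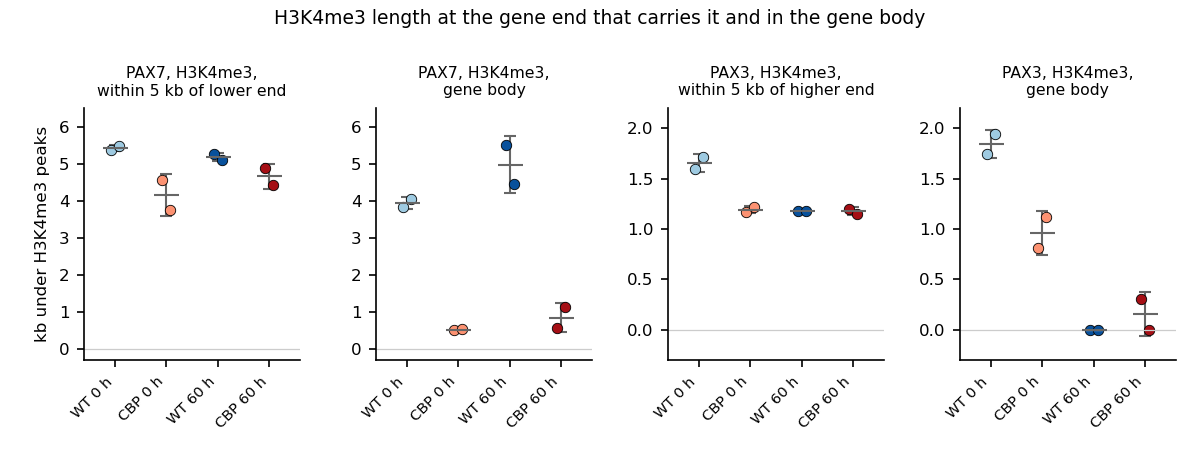
Length under H3K4me3 peaks (kb, linear axis) within 5 kb of the gene end that carries the mark and in the gene body beyond it, for PAX7 and PAX3. Points are libraries, 2 in each group, and bars are the mean and SD; the PAX7 gene body holds 3.83 kb or more in each WT library and 1.12 kb or less in each CBP library.

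H3K27ac at PAX7 was shorter in treated cells at 0 h. The locus held 10.995 and 9.78 kb in WT 0 h and 4.53 and 3.43 kb in CBP 0 h, and the groups did not overlap. The length fell by 1.29 on the log2 scale (SE 0.154, adjusted p = 0.00258, limma), from 10.4 ± 0.860 to 3.98 ± 0.776 kb (SD, n = 2), or 0.383-fold. Among all loci 42% were called lower, with a median of -0.70. Per Mb of covered length the values were 0.848 and 0.844 kb in WT against 0.718 and 0.719 kb in CBP, and the fall scaled by covered length was 0.22 with an adjusted p of 0.0699, which ends the call.

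H3K27ac was shorter both at the end of PAX7 and in its body at 0 h, with the lower ratio at the end. Within 5 kb of the lower end the libraries gave 3.96 and 3.39 kb in WT 0 h and 0.707 and 0.691 kb in CBP 0 h, or 0.190-fold, while the gene body gave 7.04 and 6.39 kb against 3.82 and 2.74 kb, or 0.488-fold. Over the gene ends alone, the length fell by 1.80 (adjusted p = 0.000271), where 28.2% of all genes were called lower. Per Mb of covered length the ends held 0.305 and 0.293 kb in WT 0 h and 0.112 and 0.145 kb in CBP 0 h. These values did not overlap, and the fall at the ends was not tested on this scale. Every H3K27ac region of WT 0 h was still listed in at least 1 treated library. The region at 0.08 to 4.20 kb had 3.55 and 2.99 kb in WT and 0.707 and 0.691 kb in CBP. By the count of regions, 0 of 6 at PAX7 and 0 of 1 at PAX3 were lost or gained, against 33.3% of all H3K27ac regions.

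At 60 h the difference in H3K27ac between treated and untreated cells depended on the scale. The PAX7 locus held 17.7 and 16.2 kb in WT 60 h and 12.8 and 11.117 kb in CBP 60 h, again without overlap. The length fell by 0.49 on the log2 scale (SE 0.154, adjusted p = 0.0414, limma), or 0.705-fold, where 51% of all loci were called lower and the median was -0.85. Per Mb of covered length the order turned: 0.873 and 0.903 kb in WT 60 h against 1.09 and 1.20 kb in CBP 60 h, a change of +0.35 on the log2 scale with an adjusted p of 0.0179. Without any of 6 single libraries (either replicate of WT 0 h, WT 60 h or CBP 60 h) the adjusted p was also above 0.05. Within 5 kb of the gene ends the fall was 0.65 (adjusted p = 0.00329, with 47.2% of all genes called lower), from 5.00 and 4.51 kb to 2.88 and 2.80 kb. Per Mb of covered length the ends held 0.247 and 0.251 kb in WT 60 h and 0.245 and 0.303 kb in CBP 60 h. These values overlapped.

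Single H3K27ac regions of PAX7 separated the groups at 60 h. Those at 21.5 to 22.3 kb and 67.0 to 67.6 kb were listed in both WT 60 h libraries and in no other. The region at 14.1 to 14.6 kb was listed in the 6 other libraries and in neither of CBP 60 h. In this way 3 of 13 regions at PAX7 were lost and none was gained, against 22.7% of all regions lost. An intragenic region at 58.3 to 59.6 kb was held by both groups at 60 h, whose libraries overlapped. It had 0.910 and 1.07 kb in WT 60 h and 1.09 and 0.685 kb in CBP 60 h, and it was in 1 of the 4 libraries at 0 h (0.272 kb, CBP replicate 1).

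The difference between the effects of SGC-CBP30 at the 2 times was itself tested for H3K27ac at PAX7. It was 0.80 on the log2 scale (adjusted p = 0.0499), meaning a smaller fall at 60 h than at 0 h, where 9.16% of all loci were called higher. The call was lost in 11 of 20 alternative analyses, with the same direction in each, among them those without any single H3K27ac library other than CBP 0 h replicate 1.

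**Figure D3:**
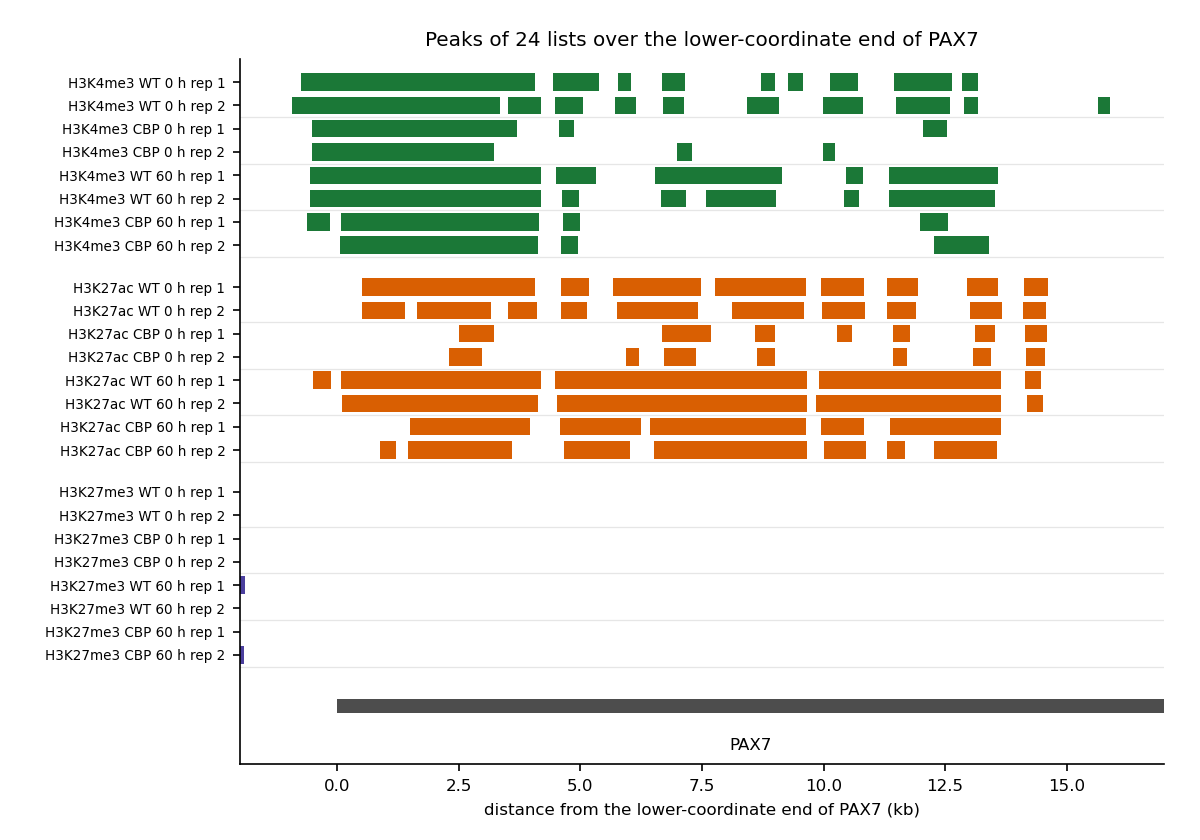
Peaks of the 24 lists around the lower-coordinate end of PAX7, by distance in kb from its lower-coordinate end. The H3K4me3 peak at the gene end stays in all 8 rows while the peaks beyond 5 kb are few in the CBP rows, and H3K27ac is broken into short peaks in CBP 0 h and forms 3 long stretches in WT 60 h.

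With differentiation in untreated cells, the length of H3K4me3 at PAX7 did not pass the test. The locus went from 9.20 and 9.52 kb at 0 h to 10.8 and 9.53 kb at 60 h, a change of 0.11 with a 95% interval from -0.08 to 0.29 (adjusted p = 0.269). Scaled by covered length it was -0.17. The strongest peak, at the lower end, had folds of 39.0 and 43.7 at 0 h and 26.0 and 24.4 at 60 h. By -log10 p it ranked at the top 48.2% and 50.6% of the WT 60 h lists, against 14.3% and 7.32% in WT 0 h. Neither was tested. At the same time 1 of 8 regions was lost (5.70 to 6.15 kb), against 5.1% of all regions.

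H3K27ac at PAX7 was longer at 60 h than at 0 h in untreated cells. It rose by 0.68 on the log2 scale (SE 0.154, adjusted p = 0.0132), from 10.4 ± 0.860 to 16.9 ± 1.02 kb (SD, n = 2), or 1.63-fold, and every 60 h library was above every 0 h library. Of all loci, 46.9% were called higher, with a median of 0.74, so PAX7 lay near the middle of all loci. As a share of covered length the values were alike (1.05-fold), the change scaled this way was 0.07 (adjusted p = 0.497), and with quantile scaling it was -0.08 (adjusted p = 0.542). The call was also lost without WT 0 h replicate 2 (0.60) or WT 60 h replicate 1 (0.62). Of 11 regions, 3 were gained (21.5, 58.3 and 67.0 kb), against 25.4% of all H3K27ac regions. In WT 60 h the strongest H3K27ac peak of PAX7, by the -log10 p of the authors' lists, ranked within the top 0.555% and 0.438%. Its folds were 19.2 and 17.6, and the highest fold in the locus was 19.2 in each library.

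H3K27me3 was listed in the flanks of PAX7 and at no place inside the gene in any of the 8 libraries. Both WT 0 h libraries held 0 kb over the whole locus. Those of CBP 0 h held 8.86 and 4.55 kb, those of WT 60 h 2.86 and 0.794 kb, and those of CBP 60 h 4.43 and 5.16 kb. All CBP 0 h libraries were thus above WT 0 h and above WT 60 h, and the CBP groups overlapped each other.

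Most of this H3K27me3 was in the lower flank, far from the H3K4me3. In CBP 0 h, 8.53 of 8.86 kb and all 4.55 kb lay there, in regions such as chr6:77114141-77116361 (-46.7 to -44.5 kb) and chr6:77117255-77118574 (-43.6 to -42.3 kb), which were in all 6 libraries outside WT 0 h. The region at -3.22 to -1.90 kb, the nearest to the gene, was in 1 WT 60 h and both CBP 60 h libraries (0.381 kb against 1.19 and 0.366 kb) and in none at 0 h. No H3K4me3 or H3K27ac peak of the PAX7 locus overlapped H3K27me3 in any group.

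The rise in H3K27me3 length from 0 kb with treatment at 0 h passed the test at PAX7 (adjusted p = 0.000924), where 79.8% of all loci were called higher. The call was lost in 4 of 20 alternative analyses. Among them were quantile scaling (adjusted p = 0.0885) and the gene ends, which held 0 kb in both groups. With a -log10 q of at least 5, or with lists of equal length, PAX7 had 0 regions in this contrast. Its peaks in CBP 0 h had folds of 3.25 to 4.45. The untreated 0 h lists were the shortest of the mark, with 1338 and 2660 peaks against 14723 and 19317 in CBP 0 h. By regions, 5 of 10 at PAX7 and 5 of 10 at PAX3 were gained, against 44.7% of all H3K27me3 regions. At 60 h the treated libraries were both above the untreated ones, but the difference of 1.34 on the log2 scale (95% interval 0.08 to 2.61) had an adjusted p of 0.154, where 12.4% of all loci were called in either direction. There 1 of 9 regions at PAX7 and 1 of 8 at PAX3 were gained, against 19% of all.

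With differentiation in WT the PAX7 locus rose from 0 kb to 2.86 and 0.794 kb of H3K27me3 (adjusted p = 0.0300, with 29.1% of all loci called higher). That call was lost in 10 of 20 alternative analyses, among them those without either WT 0 h library, WT 60 h replicate 1 or either CBP 60 h library. Regions gained numbered 2 of 5 at PAX7 and 1 of 4 at PAX3, against 32.1% of all.

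**Figure D4:**
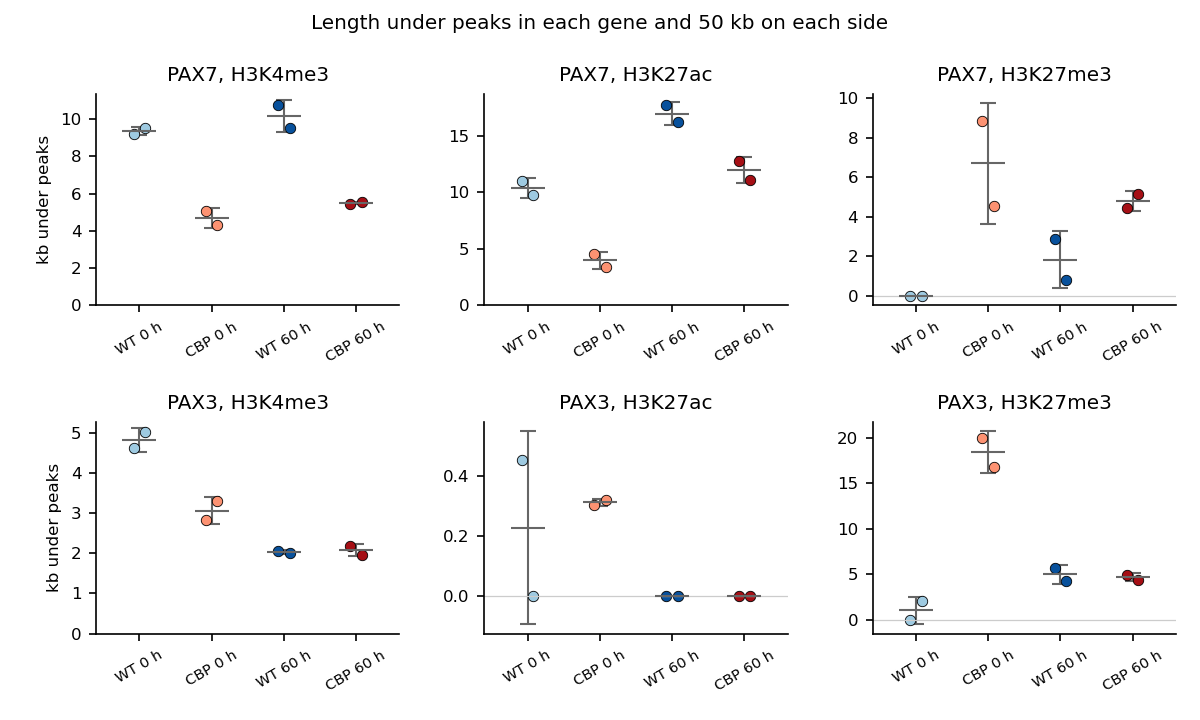
Length under peaks (kb, linear axes that differ between panels) in PAX7 and PAX3 with 50 kb on each side, by mark and group. Points are libraries, 2 in each group, and bars are the mean and SD; H3K4me3 at PAX7 is lower in CBP at both times, H3K4me3 at PAX3 is highest in WT 0 h, and H3K27me3 at PAX3 is highest in CBP 0 h.

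PAX3 carried short H3K4me3 peaks at its higher end and almost no H3K27ac. The H3K4me3 region spanning the higher end, chr15:124191888-124193604 (98.1 to 99.8 kb), and another beyond the gene, chr15:124199782-124200769 (106.0 to 107.0 kb), were listed in all 8 libraries. The first had 1.59 and 1.72 kb in WT 0 h, 1.17 and 1.22 kb in CBP 0 h, 1.18 and 1.17 kb in WT 60 h, and 1.20 and 1.15 kb in CBP 60 h. Only the WT 0 h libraries stood apart, above the other 6. The longest peak at PAX3 was at the top 29.997% and 25.991% of its list by length in WT 0 h, against 0.544% and 0.939% at PAX7.

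H3K27ac was listed at a single region of the PAX3 locus, at -40.8 to -40.4 kb, below the gene, chr15:124052966-124053420. Its lengths were 0.455 and 0 kb in WT 0 h and 0.305 and 0.321 kb in CBP 0 h, and it was listed at 0 in all 60 h libraries. No contrast passed the test (adjusted p from 0.222 to 1). Treated against untreated at 0 h passed it, higher in CBP, without WT 0 h replicate 1 (0.70) and under quantile scaling (1.02, adjusted p = 0.00836), and the direction turned without WT 0 h replicate 2 (-0.23). The H3K4me3 regions of PAX3 therefore had no listed H3K27ac over them, whereas 6.02 to 6.89 kb of PAX7 was under both marks in WT 0 h, 0.691 to 1.002 kb in CBP 0 h, 8.82 to 10.5 kb in WT 60 h and 3.09 to 3.94 kb in CBP 60 h.

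**Figure D5:**
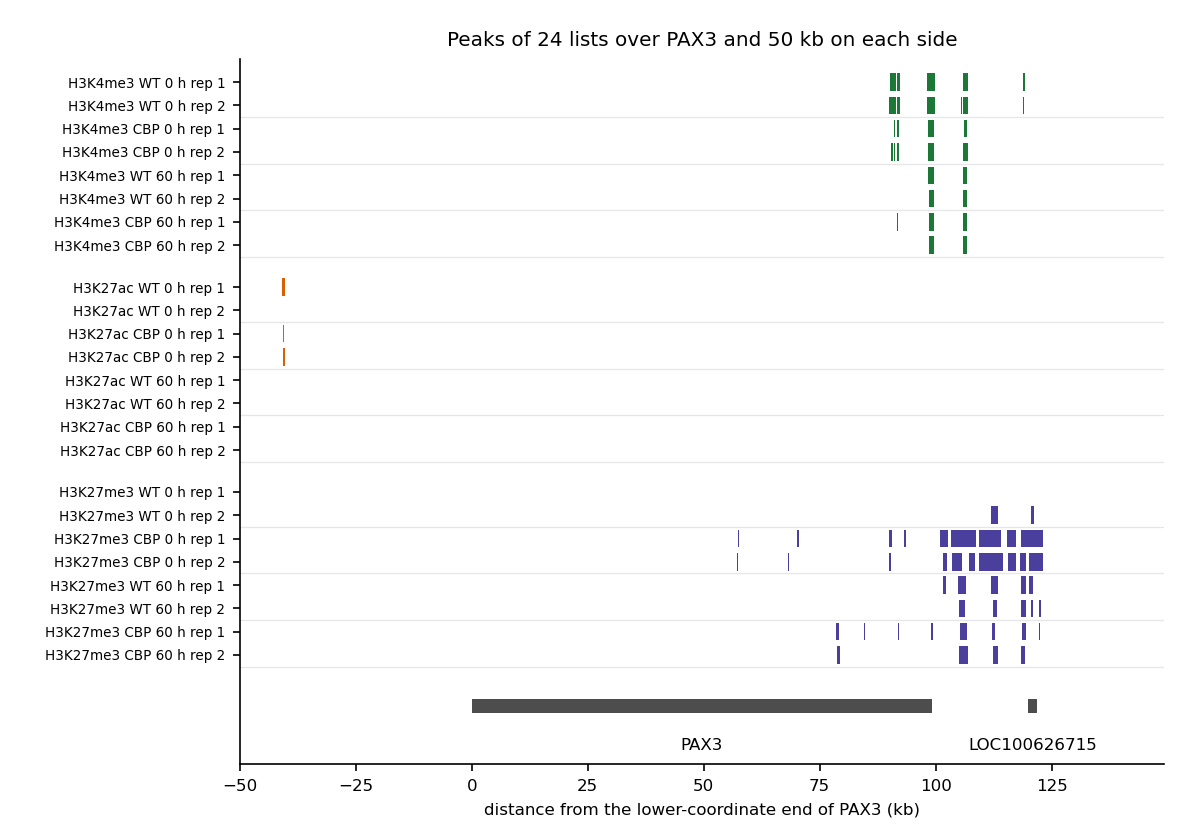
Peaks of the 24 lists (rows, grouped by mark and condition) drawn to scale by distance in kb from the lower-coordinate end of PAX3, with PAX3 and LOC100626715 as grey bars. H3K4me3 regions inside the gene near 90 kb are listed at 0 h and almost absent at 60 h, and H3K27me3 fills most of 101 to 123 kb in the CBP 0 h rows.

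H3K4me3 at PAX3 fell with differentiation in untreated cells. The locus held 4.62 and 5.03 kb in WT 0 h and 2.06 and 1.996 kb in WT 60 h, with a wide gap between the groups. It fell by 1.07 on the log2 scale (SE 0.08, adjusted p = 3.26e-05, limma), from 4.82 ± 0.292 to 2.03 ± 0.0460 kb (SD, n = 2), or 0.420-fold. Only 5.12% of all loci were called lower, while the median over all was 0.22 and the lists were 1.23-fold longer. The call and its direction were the same in all 21 alternative analyses. The regions at 90.0 to 91.5 kb (1.27 and 1.44 kb in WT 0 h), 91.6 to 92.2 kb (0.479 and 0.506 kb) and 118.8 to 119.2 kb (0.362 and 0.237 kb) were lost, which makes 3 of 6 against the 5.1% given above. The last lies beyond PAX3 and next to LOC100626715, and with the gene extended by 10 kb 2 of 5 regions were lost. Over the gene ends the fall was 0.36 (adjusted p = 0.00209), where 5.62% of all genes were called lower.

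SGC-CBP30 lowered H3K4me3 at PAX3 in proliferating cells. The locus held 2.83 and 3.30 kb in CBP 0 h, below both WT 0 h libraries and above all 4 at 60 h. It fell by 0.58 on the log2 scale (SE 0.08, adjusted p = 0.000754), or 0.635-fold, for the mark and contrast in which 60.5% of all loci were called lower, and by 0.29 when scaled by covered length (adjusted p = 0.0241). In the gene body the lengths were 1.75 and 1.94 kb in WT 0 h against 0.810 and 1.12 kb in CBP 0 h. They were 1.59 and 1.72 kb against 1.17 and 1.22 kb at the higher end, and 1.28 and 1.37 kb against 0.846 and 0.963 kb in the higher flank, so all these zones were shorter in the treated libraries. Over the gene ends the fall was 0.35 (adjusted p = 0.00310), a call made for 40% of all genes. Within the gene body the difference lay mostly in the region at 90.0 to 91.5 kb, at 0.343 and 0.638 kb in the treated libraries, and the neighbouring region at 91.6 to 92.2 kb stayed at 0.467 and 0.480 kb.

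At 60 h the treated and untreated libraries overlapped at PAX3. H3K4me3 measured 2.06 and 1.996 kb in WT 60 h and 2.18 and 1.97 kb in CBP 60 h, a difference of 0.02 on the log2 scale with a 95% interval from -0.16 to 0.21 (adjusted p = 0.863). The difference between the effects at the 2 times was 0.61 (adjusted p = 0.00354), where 55.2% of all loci were called higher. Scaled by covered length it was 0.29 (adjusted p = 0.0887), which ends that call.

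H3K27me3 at PAX3 was listed over a longer stretch in treated than in untreated proliferating cells, mostly beyond the higher end of the gene. The locus held 0 and 2.11 kb in WT 0 h, 20.0 and 16.8 kb in CBP 0 h, 5.73 and 4.27 kb in WT 60 h, and 4.99 and 4.36 kb in CBP 60 h. The CBP 0 h libraries were above all others, and the 60 h groups overlapped. The length rose by 4.04 on the log2 scale (SE 0.739, adjusted p = 0.00272), from 1.06 ± 1.49 to 18.4 ± 2.31 kb (SD, n = 2). Of all loci 79.8% were called higher, with a median of 2.52, and covered length was 14.1-fold in CBP 0 h against WT 0 h. Per covered length the ratio at PAX3 was 1.84-fold. The change scaled this way was 1.93 with an adjusted p of 0.249, which ends the call. With quantile scaling the adjusted p was 0.123.

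Most of the H3K27me3 length at PAX3 in CBP 0 h lay between 101 and 123 kb, in 5 of the 14 regions of the locus. The other 9 were shorter and lay inside the gene or across its higher end, and the gene body held 1.93 and 1.08 kb in CBP 0 h, 1.20 and 0.575 kb in CBP 60 h and none in either WT group. The region gained at 60 h, at 78.5 to 79.3 kb, is among them (0.582 and 0.575 kb in CBP 60 h). In the higher flank CBP 0 h held 15.6 and 14.0 kb, WT 0 h 0 and 2.11 kb, WT 60 h 5.03 and 4.27 kb, and CBP 60 h 3.36 and 3.78 kb. The region at 103.3 to 108.6 kb, chr15:124197135-124202444, had 5.31 and 3.41 kb in CBP 0 h, 1.75 and 1.22 kb in WT 60 h, 1.32 and 2.01 kb in CBP 60 h and none in WT 0 h. The region at 115.5 to 117.3 kb was in both CBP 0 h libraries (1.76 and 1.76 kb) and in no other. The region at 118.2 to 123.2 kb covers LOC100626715 and had 0 and 0.743 kb in WT 0 h, 4.77 and 4.30 kb in CBP 0 h, 1.90 and 2.13 kb in WT 60 h, and 1.37 and 0.740 kb in CBP 60 h. Over the gene ends, H3K27me3 at PAX3 rose from 0 kb in both WT 0 h libraries to 2.50 and 1.67 kb in CBP 0 h (adjusted p = 0.00781), where 76.7% of all genes were called higher.

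At 60 h SGC-CBP30 did not change H3K27me3 at PAX3 by this test. The difference was -0.08 on the log2 scale with a 95% interval from -1.87 to 1.71 (adjusted p = 1), which is wide enough to hold a several-fold change either way. The change with differentiation in WT was 2.25 (95% interval 0.46 to 4.04, adjusted p = 0.0647), and it passed the test without WT 0 h replicate 2 (3.45), the WT 0 h library that holds peaks. The effect of SGC-CBP30 was lower at 60 h than at 0 h, by 4.12 at PAX3 (adjusted p = 0.0171) and by 2.44 at PAX7 (adjusted p = 0.0294), where 57.9% of all loci were called lower. At PAX7 the direction turned in 3 alternatives, among them the one within 10 kb of the gene (0.61), and the call was lost without either WT 0 h library, CBP 0 h replicate 1, WT 60 h replicate 1 or either CBP 60 h library. At PAX3 it was lost without CBP 0 h replicate 1, WT 60 h replicate 1 or either CBP 60 h library. Scaled by covered length the difference was -1.83 at PAX7 (adjusted p = 0.0541) and -2.73 at PAX3 (adjusted p = 0.273), and with quantile scaling it was -0.0432 (adjusted p = 0.965) and -1.91 (adjusted p = 0.0985), so both scalings end both calls.

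H3K4me3 peaks of the PAX3 locus, among them the one at 106 kb, overlapped H3K27me3 in some groups. The length shared over the whole locus was 0 in WT 0 h and 0.35 to 0.622 kb in WT 60 h over the library pairs. It was 0.668 to 1.17 kb in CBP 60 h. In CBP 0 h it was 0.846 and 1.06 kb with H3K27me3 replicate 1 and 0 with replicate 2, whose peaks lie on either side of the 106 kb peak. At PAX7 the corresponding value was 0 throughout.

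PAX7 and PAX3 were set beside the loci of the myogenic regulatory factors, the transcription factors that act with or after them. MYF5 and MYF6 lie next to each other and share a window, so their values are not separate observations. At MYF5 the H3K4me3 length was 4.50 kb in WT 0 h and 2.34 kb in CBP 0 h (log2 -0.81, adjusted p = 7.94e-05), and 4.25 kb against 2.56 kb at 60 h (-0.64, adjusted p = 0.000688), falls at both times as at PAX7. Its H3K27ac fell by 1.49 at 0 h (adjusted p = 0.00458) and by 1.16 at 60 h (adjusted p = 0.00822), against 1.29 and 0.49 at PAX7. Of all loci, 42% were called lower at 0 h and 51% at 60 h. As a share of covered length, H3K27ac at MYF5 was 0.714-fold at 0 h and 0.789-fold at 60 h. At PAX7 it was 0.850-fold and 1.29-fold, so the directions differed at 60 h, and the difference between the genes was not tested. MYF5 had no H3K27me3 in any library.

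MYOD1 and MYOG, which drive commitment and differentiation, went the opposite way to PAX3 with time. In WT, H3K4me3 rose from 0.996 to 3.73 kb at MYOD1 (log2 1.51, adjusted p = 1.23e-05) and from 0 to 6.37 kb at MYOG (adjusted p = 5.90e-08). A rise was common in this contrast: over the gene ends 41.5% of all genes were called higher, and covered length was 1.23-fold. At 60 h SGC-CBP30 lowered H3K4me3 at MYOG from 6.37 to 3.18 kb (log2 -0.90, adjusted p = 0.000253), and at MYOD1 the values were 3.73 and 3.35 kb (adjusted p = 0.315). These comparisons share the WT 60 h libraries, and differences between genes were not tested.

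Among genes measured in H3K4me3 and another mark, those whose length at the gene ends moved most like PAX7 over the 24 libraries, centred within each mark, were EBF3, LBX1 and CNIH3, of 9681 compared. Their Pearson r was 0.840, 0.833 and 0.811. LBX1 is itself a homeobox factor of migrating muscle precursors. Its H3K27ac averaged 2.38 kb in WT 0 h, 1.32 kb in CBP 0 h, 6.58 kb in WT 60 h and 3.55 kb in CBP 60 h. For PAX3, of 9683 compared, they were C4H1orf194, C9H11orf88 and ILDR2, at 0.966, 0.957 and 0.947. None of these had H3K27ac at its ends in any group, and the H3K27me3 of C9H11orf88 averaged 6.71 kb in CBP 0 h against 0 in WT 0 h. Libraries share list length, which enters every such r, so these are descriptions.

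Genes that work with PAX7 and PAX3 were described by their length within 5 kb of either gene end, in lists drawn from knowledge of the pathway. For H3K4me3 in WT at 60 h against 0 h, 41.5% of all genes were called higher and 5.62% lower, with a median of 0.17. Of 11 measured partners and upstream factors, 4 rose and 2 fell (median 0.13). MEOX2, a homeobox factor of the somite, rose from 0.299 and 0.256 kb to 3.27 and 2.96 kb, and PITX3 from 3.39 and 3.66 kb to 6.02 and 5.09 kb.

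Other lists at this contrast held members in both directions. Of 8 cofactors 3 rose and none fell (median 0.16), among them CARM1, from 3.10 and 3.03 kb to 4.41 and 4.18 kb. Of 10 targets 3 rose and 3 fell (median 0.10). FGFR4, a growth factor receptor, rose from 0.818 and 0.885 kb to 2.69 and 2.70 kb, and ID3, an inhibitor of myogenic factors, fell from 4.17 and 4.50 kb to 2.88 and 3.21 kb. Of 13 satellite cell surface genes 4 rose and 1 fell (median 0.09), with the tetraspanin CD82 at 1.28 and 1.23 kb before and 4.99 and 4.93 kb after.

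Genes of the Notch pathway, which holds satellite cells in quiescence, had 6 of 8 called higher and 1 lower (median 0.53). The ligand DLL1 rose from 1.07 and 1.06 kb to 4.76 and 4.74 kb, and RBPJ, the DNA-binding factor of the pathway, fell from 0.590 and 0.669 kb to 0 in both libraries. Of the 4 other PAX genes measured, 3 fell and 1 rose (median -0.85). PAX5 fell from 1.77 and 1.78 kb to 0.841 and 0.776 kb and PAX6 from 2.94 and 2.45 kb to 1.24 and 0.938 kb, as PAX3 did, and PAX9 rose from 0 to 1.53 and 1.42 kb. Of 9 neural crest genes 4 rose and 1 fell (median 0.25), with the receptor ERBB3 rising from 2.64 and 2.63 kb to 6.85 and 6.74 kb.

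With SGC-CBP30 at 0 h, the median over all genes in H3K4me3 at their ends was -0.18, and the share called lower is given above. The counts lower were 8 of 11 partners (median -0.48), 3 of 8 cofactors (-0.17), 7 of 10 targets (-0.49), 7 of 13 surface genes (-0.28), 2 of 8 Notch genes (-0.25), 3 of 4 other PAX genes (-1.30) and 6 of 9 neural crest genes (-0.58), and no member was called higher. MYF5 fell from 4.26 and 4.52 kb to 2.38 and 2.30 kb, and MET, the receptor that guides migrating precursors and is a target of PAX3, from 3.16 and 3.21 kb to 1.71 and 2.15 kb.

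For H3K27ac the same lists were mostly lower or not called under SGC-CBP30. At 0 h 28.2% of all genes were called lower, with a median of -0.35. The counts lower were 4 of 11 partners (median -0.65), 3 of 8 cofactors (-0.62), 4 of 9 targets (-1.03), 3 of 8 surface genes (-0.83), 2 of 4 Notch genes (-1.04) and 2 of 4 neural crest genes (-0.75). MET fell from 0.894 and 0.927 kb to 0 in both libraries. The other PAX genes had no measured H3K27ac.

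At 60 h 47.2% of all genes were called lower in H3K27ac under SGC-CBP30, with a median of -0.73. The counts lower were 7 of 11 partners (median -0.75), 6 of 8 cofactors (-0.82), 4 of 9 targets (-0.51), 5 of 8 surface genes (-0.87), 0 of 4 Notch genes (-0.51) and 1 of 4 neural crest genes (-0.12). CARM1 fell from 4.09 and 3.17 kb to 0.336 and 0.295 kb and KMT2A, an H3K4 methyltransferase, from 2.77 and 2.69 kb to 1.09 and 0 kb.

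H3K27me3 at the gene ends rose with SGC-CBP30 at 0 h in the share of all genes given above, with a median of 2.02. All 6 other PAX genes of the table were called higher (median 1.70), and their treated libraries held 4.72 to 20.0 kb, where the longest fill the whole window, against the 2.50 and 1.67 kb at PAX3 and the 0 kb at PAX7. PAX6 went from 1.99 and 2.99 kb to 10.0 and 8.02 kb. Called higher were also 7 of 9 neural crest genes (median 2.68), 4 of 5 partners (2.32), 2 of 3 surface genes (1.97), 1 of 2 Notch genes (1.54) and the single measured target, CNTFR, named after its value was seen. No cofactor had measured H3K27me3.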

How the data were processed

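CUT&Tag libraries of H3K4me3, H3K27ac and H3K27me3 were used, 2 in each of 12 groups, with groups and times read from the sample titles. The authors deposited 1 peak list per library. Trimmomatic, MACS2 2.1.0 and the build Sscrofa11.1 are named per the submitters' processing notes. The aligner, the calling options and control, and the depth of reads were not given in the sources used here. No counting error could therefore be stated. The deposited lists hold the MACS2 score, the fold enrichment (a ratio over local background) and the -log10 p (used to rank peaks within a list). They also hold the -log10 q (used for an alternative filter) and, in the narrow lists, a summit offset.

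Overlapping peaks of a list were merged (Python 3.11.15, pandas 2.3.3, numpy 2.4.6; figures with matplotlib 3.10.9). For each gene, the bp covered by peaks were summed over the gene and 50 kb on each side, or within 5 kb of either gene end, for 19550 protein-coding genes on placed chromosomes of the RefSeq table for Sscrofa11.1. The build was checked from H3K4me3 peaks within 1 kb of a gene end (68.2 to 74.1%, and 9.04 to 11.1% after a shift of 200 kb). Neighbouring genes can share peaks. Lengths entered limma 3.58.1 (R 4.3.3; lmFit and eBayes, trend and robust) on log2(bp + 500), which understates changes of short lengths, keeping genes where 2 or more libraries had 200 bp or more. There was 1 fit per mark with 8 libraries and 4 residual degrees of freedom. P-values are two-sided with Benjamini-Hochberg adjustment over all genes of a contrast, and a call is an adjusted p below 0.05. An exact permutation test of 2 against 2 libraries cannot give a p below 0.333. No log2 change is given against a group at 0 kb, except at PAX3 where leaving out a library left WT 0 h at 0 kb. Those changes, in H3K27ac and H3K27me3, depend on the added length. The difference between effects at PAX7 for H3K27me3 also involves a group at 0 kb and depends on the added length. Regions are merged peaks of the 8 libraries of a mark, shared from 1 bp of overlap.

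The 2 genes and the gene lists were chosen with earlier results of these data known. Named besides PAX7 and PAX3 are the 3 genes with the highest correlation to each, MYF5, MYF6, MYOD1, MYOG, the gene inside the loci, and from each list at most 4 members called in the most marks. Some genes that this rule or a marker list names are not reported here. The plan described positions from the transcription start where strand is given. The table gives none, so gene ends were used. Alternatives were other scalings, added lengths, filters, windows, peak thresholds and region overlaps, equal list lengths, another variance model, a replicate block and leaving out libraries.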

Additional observations from a re-analysis of the deposited data

Results flagged for a closer look

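Results were singled out where the effect of SGC-CBP30 on a locus length differed between 60 h and 0 h, by the test of that difference in limma over all loci. H3K4me3 at PAX3 had a difference of 0.61 on the log2 scale, since it fell at 0 h and the groups overlapped at 60 h. H3K27ac at PAX7 had a difference of 0.80, with a smaller fall at 60 h. H3K27me3 at PAX7 had a difference of -2.44, and at PAX3 of -4.12, as the excess of listed length in CBP over WT was larger at 0 h than at 60 h. Both H3K27me3 calls ended under quantile scaling and when scaled by covered length, and the direction at PAX7 turned in 3 of 19 alternatives. Of all loci, 55.2% were called in the same direction for H3K4me3, 9.16% for H3K27ac and 57.9% for H3K27me3. List length moved with these differences, and its part was not tested.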

How the results depend on the processing

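Read depth is not given, so what depth limits cannot be stated, and peak length follows the authors' threshold. Of the 6 gene and mark pairs, those called for SGC-CBP30 at 0 h numbered 5, and 3 when scaled by covered length. At 60 h 2 were called, and 1 with quantile scaling, with 200 bp added, with eBayes without trend and robust, with a -log10 q of at least 5, or within 5 kb of the gene ends. For 60 h against 0 h in WT 3 were called, and 1 with a -log10 q of at least 5. For the difference between the effects 4 were called, 1 with quantile scaling or scaled by covered length, and 2 with 2000 bp added. Leaving out single libraries gave 5 to 6, 1 to 2, 2 to 3 and 2 to 4 calls in these comparisons. Regions lost or gained numbered 12 for SGC-CBP30 at 0 h, and 5 within 10 kb of the genes, 7 with a -log10 q of at least 5 and 3 with lists of equal length. At 60 h they numbered 7, and 2 and 4 under the last 2 settings. For 60 h against 0 h in WT they numbered 10, and 4 and 2 under these settings, and 6 where at least 50% of a region had to be covered. Leaving out single libraries gave 12 to 17, 7 to 10 and 10 to 14 regions. The cause was not tested.

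Directions turned as follows, on the log2 scale. For SGC-CBP30 at 60 h, H3K4me3 at PAX3 gave -0.0046 with quantile scaling, -0.0015 scaled by covered length, -0.064 with the -log10 q filter, -0.064 with equal lists and -0.0032 at the gene ends. H3K27ac at PAX7 gave 0.0689 with quantile scaling and 0.35 scaled by covered length, and H3K27me3 at PAX3 gave 0.14 with equal lists and 0.53 within 10 kb. For 60 h against 0 h in WT, H3K4me3 at PAX7 gave -0.20 with quantile scaling, -0.17 scaled by covered length and -0.0623 at the gene ends, and H3K27ac at PAX7 gave -0.0810 with quantile scaling. For the difference between the effects, H3K4me3 at PAX7 gave -0.14 with quantile scaling, -0.22 scaled by covered length, -0.0276 with the -log10 q filter and -0.0807 with equal lists, and H3K27me3 at PAX7 gave 1.10 with equal lists, 0.61 within 10 kb and 0.93 at the gene ends. Leaving out single libraries gave -0.0354 to 0.0825 for H3K4me3 and -0.27 to 0.11 for H3K27me3 at PAX3 with SGC-CBP30 at 60 h, -0.23 to 0.70 for H3K27ac at PAX3 with SGC-CBP30 at 0 h and -0.70 to 0.23 for its difference between the effects.

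Same-numbered libraries did not deviate together: the correlations of their deviations from the group means ran from -0.06 to 0.04 for H3K4me3, 0.01 to 0.04 for H3K27ac and -0.08 to 0.16 for H3K27me3, so replicate numbers were not taken as pairs. A fit with the replicate block called 5, 2, 3 and 4 pairs in the 4 comparisons, as without it.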
